A study of Mus musculus with 92 samples.

Results

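Fetal intestinal spheroids were compared with adult small intestinal organoids in cultures treated to delete both copies of Eif4g2. Members were chosen by their titles: the 6 spheroid and the 4 organoid libraries with the genotype Eif4g2(flox/flox), Rosa26(CreER) that had received 4-hydroxytamoxifen (4-OHT) in ENR medium. These are 10 of the 92 mouse samples in the series, and both groups had the same genotype, agent, medium and harvest day. The loxP-flanked Eif4g2 copies are excised by CreER, a Cre recombinase that 4-OHT activates and that the ubiquitously active Rosa26 locus expresses. How complete the excision was in each library was not measured here. The agent was given at 0.5 µM for 24 h and RNA was taken on day 6. Organoids under DMSO were not analysed here, so 4-OHT itself was a condition of both groups. For reference, the same table holds 4 organoid and 5 spheroid libraries with 1 floxed copy (flox/+, Rosa26(CreER)) under 4-OHT, and 6 flox/flox spheroid libraries under DMSO. Neither the strain nor the fetal stage is given by the labels. The spheroid lines carried 3 name prefixes: S9484 (replicates 1 and 3), S9488 (replicates 2, 4 and 5) and S9020 (replicate 6), and whether lines of 1 prefix came from separate embryos is not stated. The 4 organoid lines carried 4 different names. The p-values measure the spread between these libraries, each taken as a separate replicate. The labels do not establish this for spheroid lines of 1 prefix.

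Adult organoids form crypt-like buds in which Lgr5+ stem cells, held by Wnt signals and neighbouring Paneth cells, produce absorptive enterocytes and secretory goblet, enteroendocrine and tuft cells. Fetal intestinal epithelium taken before crypts form grows instead as round spheroids of immature progenitors that express Ly6a (Sca-1), Clu and Gja1, depend little on Wnt ligands and show high activity of the transcriptional co-activator YAP. Damaged adult epithelium returns for a time to a similar state. Eif4g2 (also called DAP5) encodes a relative of the scaffold protein eIF4G1 that lacks the part that binds the cap-binding protein eIF4E, and it serves translation initiation on selected mRNAs.

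The targeted transcript, Eif4g2 (ENSMUSG00000005610, chr7:111067750-111083030, GRCm38), was low in both groups. Organoid replicates 1 to 4 had 244, 253, 213 and 208 CPM (counts scaled to a common library size, after edgeR's TMM scaling over the 34 libraries of the table), against a mean of 763 in flox/+ organoids. The spheroids had from 87.4 to 222 CPM with a median of 114, against a mean of 527 in flox/+ spheroids and 898 in flox/flox spheroids under DMSO. Spheroid replicate 6 was the highest of its group, above 2 organoid libraries, so the groups overlapped. The remaining transcript was lower in the spheroids (log2 fold change -0.85, SE 0.24, adjusted p = 0.0244, edgeR's quasi-likelihood F-test with Benjamini-Hochberg adjustment over 13796 genes). This call was lost without organoid replicate 1 (adjusted p = 0.0685), organoid replicate 2 (0.072), spheroid replicate 2 (0.055) or both S9484 lines (-0.79, 0.0673). It was also lost when the spheroid lines of each prefix were summed to 1 sample (-0.61, 0.156). Which exons the remaining reads cover is not known from counts per gene.

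The libraries held from 14790237 to 24573440 counts. Mitochondrial genes took 2.64% to 3.38% of the counts in organoids and 3.47% to 5.57% in spheroids (difference of means 1.75 percentage points; exact two-sided permutation test, p = 0.00952). Spheroid replicate 4 stood apart: it had the most counts but reads for only 13402 genes, against 17530 to 20000 in the other 9, and only 199 genes with exactly 1 read, against 1221 to 1990. Whether low counts were removed from this library before deposit is not given in the sources used here, so a level of 0 in replicate 4 is a listed 0. The S9484 spheroids also stood apart, with Spearman correlations to the organoids of 0.919 to 0.945, where the other spheroids had 0.844 to 0.891 (over the genes tested, which are not independent). Counts of called genes in the main lists are therefore given below also without both S9484 lines, and several of them without replicate 4. These fits were added after seeing the data. Leaving out the spheroids most like the organoids favours larger differences by design. The spheroids that remain are replicates 2, 4 and 5, all of prefix S9488, and replicate 6, so adjusted p-values without S9484 rest largely on 1 prefix. Epithelial markers were abundant in all 10 libraries, with summed levels of 9 genes from 6597 to 16250 CPM. The 11 mesenchymal markers summed to 1.40 to 8.62 CPM, the 4 endothelial markers to 0 to 0.28 and the 7 immune markers to 2.88 to 4.56 in organoids and 3.29 to 21.9 in spheroids. Of the immune genes, Csf1r, a receptor of macrophages, was higher in spheroids (0 to 0.62 against 0.35 to 10.8 CPM; adjusted p = 0.0161, and 0.0566 without organoid replicate 2), while Ptprc, which all leukocytes express, stayed at or under 0.124 CPM. Y-linked transcripts were present in all 10 libraries. The column numbers of the 2 culture types do not interleave, and spheroid replicate 6 is numbered apart from the other spheroids. What these numbers record is not stated. Any effect that goes with them cannot be told apart from culture type. The part of the mitochondrial share and of immune transcripts in the results below was not tested.

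Of 13796 genes tested, 3396 differed at an adjusted p under 0.05, which is 24.6%. Of these, 2092 (15.2% of genes tested) were higher and 1304 (9.45%) lower in the spheroids, and the median log2 fold change of all tested genes was 0.0057. By a test against a 2-fold change, 596 genes (4.32%) were higher and 151 (1.09%) lower. Groups did not overlap for 1746 genes (12.7%) higher and 1604 (11.6%) lower in spheroids. Without both S9484 lines the called genes numbered 2163 higher (16.1%) and 1773 lower (13.2%), and those beyond 2-fold 746 (5.54%) higher and 634 (4.71%) lower, so large rises outnumbered large falls far less without those 2 lines. Leaving out organoid replicate 1, 2 or 4 left 2032, 2016 and 2215 called genes, and without replicate 1 or 2 those beyond 2-fold numbered 488 and 473. The fit without spheroid replicate 4 called 3188 of 13670 genes, 1988 of them higher. Without spheroid replicate 6, 4967 genes were called, the most of any fit that left out 1 library.

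**Figure D1:**
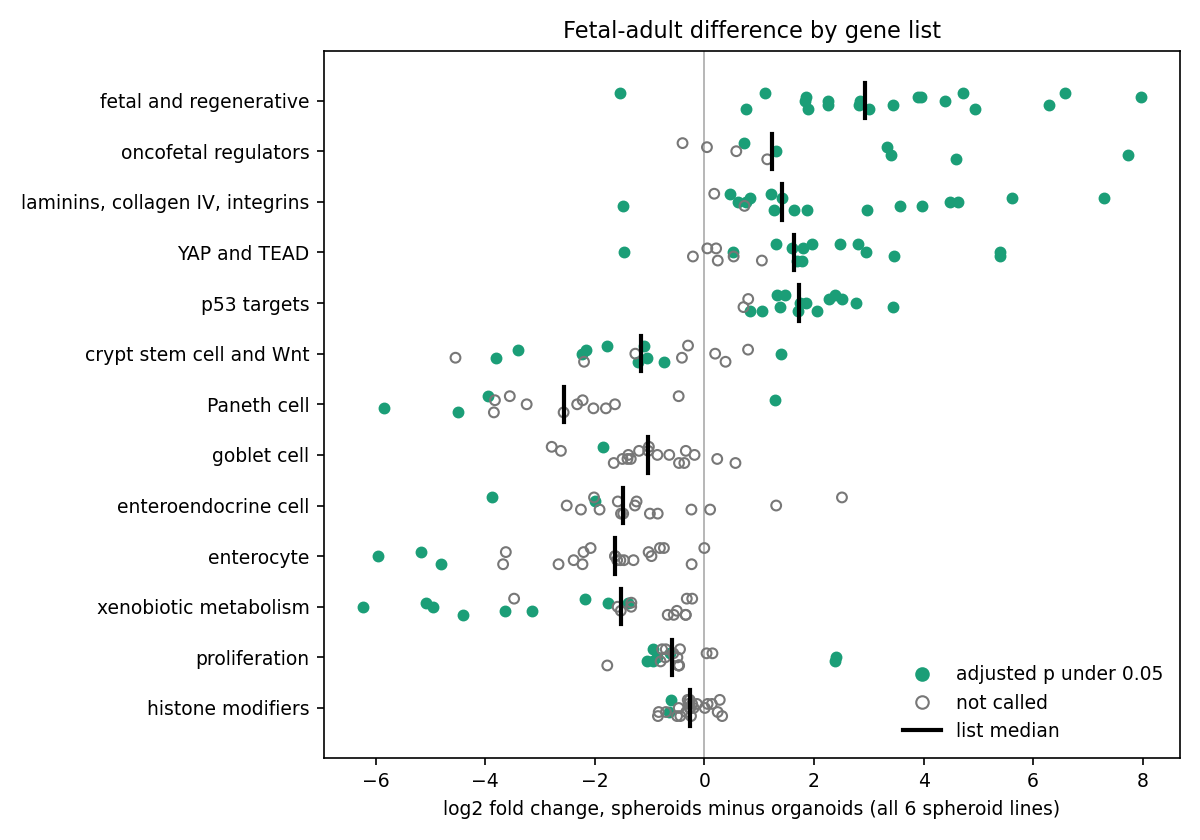
Log2 fold change (horizontal axis, spheroids minus organoids over all 6 spheroid lines) of each tested gene in 13 gene lists. Filled points passed an adjusted p under 0.05, open points did not, and the black bar is the list's median; the fetal list has its median at 2.92 and the enterocyte list at -1.63, with most enterocyte genes open.

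The gene lists below were chosen with earlier results of these data known, so their counts are a description and not a test. Genes of fetal and regenerating epithelium were higher in the spheroids nearly throughout the list. Of 20 tested, 19 rose and 1 fell, where 15.2% and 9.45% of all tested genes did. The rise was beyond 2-fold for 17, against 4.32% of all genes, and the median log2 fold change was 2.92, against 0.0057. Without both S9484 lines, where 16.1% of all genes rose and 13.2% fell, 19 rose and 1 fell (median 3.19). The same numbers rose and fell without spheroid replicate 4, in a fit that called 3188 of 13670 genes, 1988 of them higher. Gja1, which encodes the gap junction protein connexin 43 (chr10:56377330-56402513), had 0.25, 0.0621, 2.37 and 0.339 CPM in the organoids and 75.4 to 288 (median 205) in the spheroids. Every spheroid library was far above every organoid library (log2 fold change 7.97, SE 0.87, adjusted p = 0.000259). Ereg, an EGF receptor ligand, had 0.626, 0.807, 2.48 and 0.452 CPM in organoids and 53.9 to 137 (median 81.4) in spheroids. It was again separated completely (6.29, SE 0.57, adjusted p = 0.000136). Ly6a, the surface protein Sca-1 by which fetal-like cells are recognised, had 1.13, 3.41, 17.5 and 12.3 CPM in organoids and 77 to 557 (median 183) in spheroids (4.94, SE 0.93, adjusted p = 0.00431).

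The organoid lines were not alike in these genes. Organoid replicates 3 and 4 held more than replicates 1 and 2 of Ly6a and of the mesothelin gene Msln (24.8, 45.1, 204 and 180 CPM). Both stayed under the lowest spheroid, at 77 CPM for Ly6a and 831 for Msln. Clu, a secreted chaperone of revival stem cells, overlapped: organoid replicate 3 had 182 CPM and spheroid replicate 1 had 168, while the other 5 spheroids had 774 to 1626 (3.45, SE 0.64, adjusted p = 0.00345). Anxa10, a calcium-dependent lipid-binding annexin, was the gene that fell, from 71.6 to 109 CPM in organoids to 16.5 to 50.3 in spheroids (log2 fold change -1.53, SE 0.26, adjusted p = 0.00216). The smallest rise was of Areg, another EGF receptor ligand (65.1 to 112 against 108 to 191 CPM; 0.77, SE 0.20, adjusted p = 0.0192). It was not called without organoid replicate 1, 2 or 4 (adjusted p = 0.0707, 0.0608 and 0.0589) or with lines of 1 prefix summed (0.68, adjusted p = 0.05003).

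**Figure D2:**
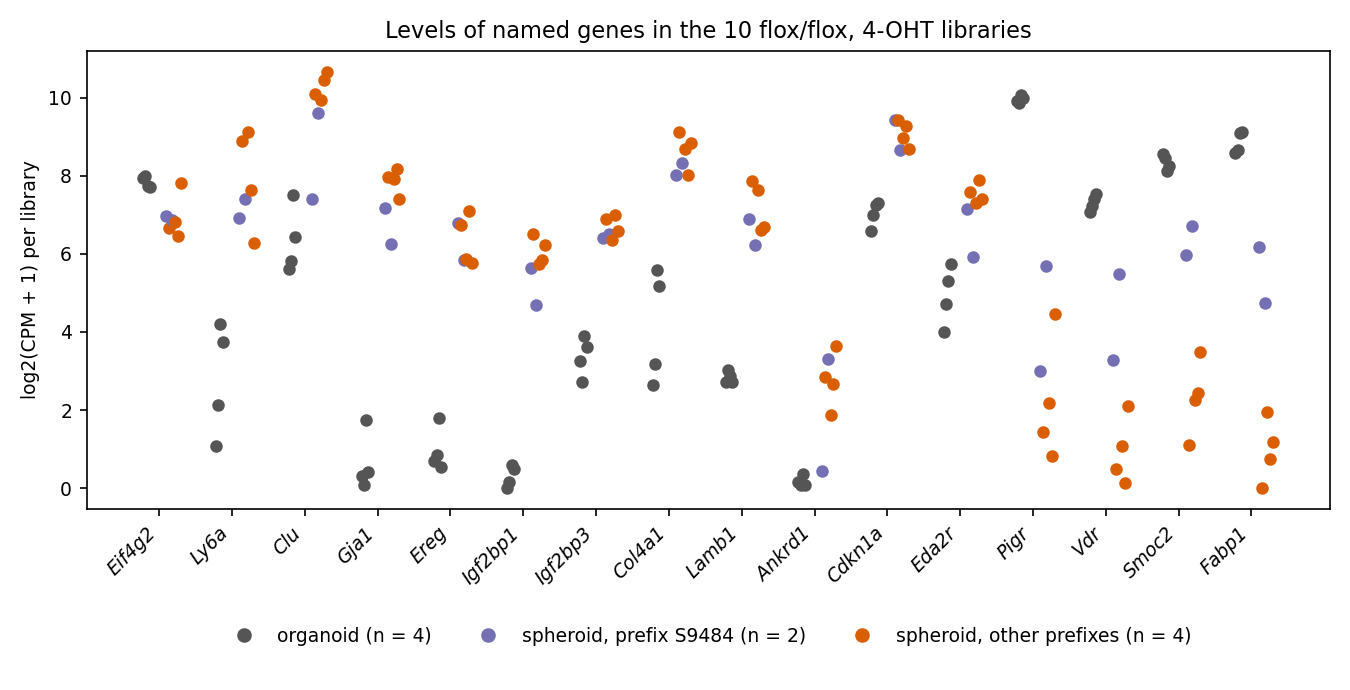
Level of 16 genes in each library, as log2(CPM + 1): grey points are the 4 organoids, purple points the 2 spheroid lines of prefix S9484 and orange points the other 4 spheroid lines. Gja1 lay at 0.0621 to 2.37 CPM in organoids and 75.4 to 288 in spheroids, and among the genes lower in spheroids the purple points of Smoc2 and Fabp1 lie above all 4 orange ones.

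Regulators typical of fetal tissue were partly shared. Of 10 oncofetal genes tested, 6 rose, none fell and 4 were not called, with a median log2 fold change of 1.23. Of all genes 15.2% rose and 9.45% fell. Leaving out both S9484 lines 5 of 9 rose, against 16.1% of all genes. With spheroid replicate 4 left out, 7 of 10 rose, against 1988 of 13670 genes in that fit. Igf2bp1, an RNA-binding protein that stabilises growth-related mRNAs in embryos (chr11:95957163-96005940), had 0, 0.124, 0.507 and 0.396 CPM in organoids and 24.7 to 89.3 (median 54.6) in spheroids. It was near absent from the adult cultures and present in every spheroid (7.74, SE 0.64, adjusted p = 0.000125). Its paralog Igf2bp3 had 8.51, 5.52, 13.9 and 11.2 CPM in organoids and 80.6 to 126 (median 92.5) in spheroids, without overlap (3.33, SE 0.27, adjusted p = 0.000118). The third paralog, Igf2bp2, was at 106 to 121 CPM in organoids and 60.1 to 249 in spheroids, which overlapped (0.58, SE 0.30, adjusted p = 0.187; 0.00638 without spheroid replicate 5, the lowest). Mycn, a MYC-family factor of embryonic progenitors, rose from 0.62 to 1.13 CPM to 2.45 to 20.7 (3.40, SE 0.57, adjusted p = 0.00184). Lin28b, which blocks maturation of let-7 microRNAs, had 0 to 0.452 CPM in organoids and 10.2, 8.62 and at most 1.41 CPM in spheroid replicates 2, 5 and the rest. Its adjusted p of 0.0493 was over the threshold after leaving out any organoid (0.0529 to 0.133) or spheroid replicate 1, 2 or 5 (0.0528, 0.0962 and 0.0807). Hmga2, a chromatin protein of fetal stem cells, was not called (1.15, SE 0.42, adjusted p = 0.0694), though it was without spheroid replicate 4 (0.048) or 5 (0.0143).

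Among 7 imprinted growth genes tested, 4 rose and 3 were not called (median 2.18), where 15.2% of all genes rose and 9.45% fell. Without both S9484 lines 3 of 6 rose (median 0.90), against 16.1% of all genes. Leaving out spheroid replicate 4, 4 rose and 1 fell, in a fit that called 3188 of 13670 genes, 1988 of them higher. The maternally expressed noncoding RNA H19 had 0.125 to 0.31 CPM in organoids and 0.308 to 6.9 (median 2.49) in spheroids, against a mean of 38.6 in the DMSO spheroids. Spheroid replicate 6 was within the organoid range, so the groups overlapped (3.95, SE 0.85, adjusted p = 0.00712). Peg3, a paternally expressed zinc-finger gene, had 0.563 to 1.30 CPM in organoids and 18.1, 32, 55, 87.2, 1.14 and 165 in spheroid replicates 1 to 6. Only replicate 5 lay within the organoid range (6.14, SE 1.24, adjusted p = 0.00614).

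Basement membrane genes formed the second list that was higher almost as a whole. Epithelia build their basement membrane from laminin heterotrimers and collagen IV and bind to it through integrins. Of 19 genes tested, 16 rose, 1 fell and 2 were not called, with a median log2 fold change of 1.42. Among all genes 15.2% rose and 9.45% fell. Leaving out both S9484 lines, 17 rose and 1 fell (median 1.49), against 16.1% and 13.2% of all genes. The collagen IV chain gene Col4a2 had 4.57, 7.7, 38.8 and 27.3 CPM in organoids and 294 to 819 (median 443) in spheroids. Its neighbour and partner Col4a1 had 5.2, 8.13, 47.4 and 35.1 CPM in organoids and 258 to 555 (median 366) in spheroids. Both were separated by more than 5-fold between the highest organoid and the lowest spheroid, although organoid replicates 3 and 4 were above replicates 1 and 2 (4.63, SE 0.66 and adjusted p = 0.000976 for Col4a2; 3.98, SE 0.65 and adjusted p = 0.00203 for Col4a1). The laminin β1 gene Lamb1 was even among the organoids, at 5.63, 7.14, 6.31 and 5.59 CPM, and had 74.3 to 233 (median 110) in spheroids (4.47, SE 0.37, adjusted p = 0.000125). The laminin α5 gene Lama5 rose from 19.2 to 67.6 CPM to 216 to 1144 (3.56, SE 0.58, adjusted p = 0.00187).

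The list also contained matrix receptors. The fibronectin gene Fn1 had 0.25, 0, 1.24 and 0.17 CPM in organoids and 5.18 to 121 (median 71.1) in spheroids, with spheroid replicate 1 the lowest (7.30, SE 1.09, adjusted p = 0.00131). Itgav, an integrin subunit that can bind fibronectin, rose from 59.1 to 64.0 CPM to 126 to 205 (1.42, SE 0.15, adjusted p = 0.000192). Itgb4, the hemidesmosome subunit that binds laminin, rose from 105 to 157 CPM to 307 to 646 (1.87, SE 0.24, adjusted p = 0.000524). The classical fibronectin receptor subunit Itga5 was the one that fell, from 7.49 to 10.6 CPM to 1.68 to 4.00 (log2 fold change -1.49, SE 0.27, adjusted p = 0.00283).

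Targets and partners of YAP, which acts with TEAD transcription factors, were largely higher. Of 20 tested, 13 rose, 1 fell and 6 were not called (median 1.64), where 15.2% of all genes rose and 9.45% fell. Without both S9484 lines 12 of 19 rose (median 1.45), against 16.1% of all genes. Without spheroid replicate 4, 10 of 19 did (1.56), against 1988 of 13670 genes in that fit. The upstream 250 bases of 2 of these genes are shown because they hold the TEAD core letters GGAATG, in capitals; they are RefSeq sequences of GRCm38.p6, minus strand, at chr19:36119845-36120094 for Ankrd1, with matches 210 and 123 bases before the start site, and at chr7:25788734-25788983 for Axl, with 1 match 233 bases before it.
Ankrd1: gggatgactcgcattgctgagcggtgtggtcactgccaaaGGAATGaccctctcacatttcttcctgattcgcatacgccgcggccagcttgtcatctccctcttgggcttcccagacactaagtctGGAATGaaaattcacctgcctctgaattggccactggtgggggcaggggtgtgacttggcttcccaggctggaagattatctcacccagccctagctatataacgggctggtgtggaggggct
Axl: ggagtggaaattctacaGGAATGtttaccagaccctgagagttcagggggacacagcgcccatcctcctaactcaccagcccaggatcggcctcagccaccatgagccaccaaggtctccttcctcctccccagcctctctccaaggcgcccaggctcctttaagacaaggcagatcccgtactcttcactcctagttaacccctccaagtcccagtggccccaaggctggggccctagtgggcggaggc
Such letters were searched on both strands in RefSeq windows from 250 bases before to 50 after start sites. They were found in 15.8% of 594 windows of genes beyond 2-fold higher and in 18.9% of 143 windows of genes beyond 2-fold lower. The share was 12.5% of 12755 windows of all tested genes and 14.7% of all 32851 windows, those of untested genes included. It was thus somewhat above that of all tested genes in both groups of called genes, and for the higher genes close to that of all windows.

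Ankrd1, a muscle and stress-induced ankyrin repeat protein, had 0.125, 0.0621, 0.282 and 0.0565 CPM in organoids and 0.35 to 11.5 (median 5.78) in spheroids, with spheroid replicate 1 close to the organoids (5.40, SE 0.96, adjusted p = 0.00265). Axl, a receptor tyrosine kinase, had 0 to 0.394 CPM in organoids and 1.14 to 10.1 (median 6.86) in spheroids (5.39, SE 0.88, adjusted p = 0.0017). The matricellular growth factor gene Ctgf had 7.95, 12.3, 35.8 and 21.0 CPM in organoids and 101 to 334 (median 208) in spheroids, all above the organoids (3.46, SE 0.47, adjusted p = 0.000661). Of the co-activators themselves, Wwtr1 (TAZ) rose from 19.3 to 52.8 CPM to 61.3 to 205 (1.96, SE 0.43, adjusted p = 0.00798). Yap1 was at 220 to 241 CPM in organoids and 226 to 320 in spheroids, which overlapped (0.22, SE 0.12, adjusted p = 0.206). Nuak2, a kinase, fell from 11.9 to 16.8 CPM to 1.92 to 9.79 (log2 fold change -1.46, SE 0.38, adjusted p = 0.0184, and 0.0577 without organoid replicate 3).

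Targets of the tumour suppressor p53, which answers DNA damage and other stress by stopping the cell cycle or inducing cell death, were higher in the spheroids. Of all genes tested 15.2% rose, 4.32% beyond 2-fold, and 9.45% fell. Of the 16 p53 targets tested, 14 rose, 9 of them beyond 2-fold, and none fell (median 1.73). The other two, the pro-apoptotic genes Bbc3 and Fas, were not called over all 6 lines (adjusted p = 0.0519 and 0.0951) but were without spheroid replicate 3 (0.00517 and 0.0234), and Bbc3 also without replicate 6 (0.0402). All 16 rose without both S9484 lines (median 1.93), against 16.1% of all genes. Cdkn1a, the cyclin-dependent kinase inhibitor p21 (chr17:29090976-29100727), had 94.8, 126, 152 and 156 CPM in organoids and 402 to 692 (median 558) in spheroids. Every spheroid was well above every organoid (2.06, SE 0.22, adjusted p = 0.000198). Its mean in the DMSO spheroids, 576 CPM, lay within the range of the 4-OHT spheroids. Btg2, an antiproliferative gene, had 15.6 to 21.9 CPM in organoids and 82.3 to 187 (median 127) in spheroids (2.77, SE 0.27, adjusted p = 0.00014). The stress-induced cytokine gene Gdf15 had 1.47 to 2.86 CPM in organoids and 30.9, 36.6, 3.81, 25.2, 33.8 and 11.7 in spheroid replicates 1 to 6, lowest in replicate 3 (3.45, SE 0.58, adjusted p = 0.00202). Mdm2, the ligase that degrades p53, rose from 77.2 to 115 CPM to 127 to 303 (1.39, SE 0.23, adjusted p = 0.00197). Eda2r, a death-domain receptor, had 14.9, 25.2, 38.3 and 52.6 CPM in organoids and 59.1 to 238 (median 163) in spheroids (2.28, SE 0.42, adjusted p = 0.00323).

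Of 20 proliferation genes 2 rose, 5 fell and 13 were not called (median -0.59), where 15.2% of all genes rose and 9.45% fell. With both S9484 lines left out, 2 rose and 2 fell (median -0.50), against 16.1% and 13.2% of all genes. Without spheroid replicate 4, 2 rose and 4 fell, in a fit that called 3188 of 13670 genes, 1988 of them higher. The D-type cyclins, which carry growth signals into the cycle, were the 2 that rose. Ccnd1 had 178, 175, 235 and 198 CPM in organoids and 683 to 1310 (median 1105.5) in spheroids (2.39, SE 0.23, adjusted p = 0.000139), and Ccnd2 had 400 to 557 against 1630 to 3148 (2.41, SE 0.24, adjusted p = 0.000163). Neither overlapped. Top2a, the topoisomerase of dividing cells, fell from 434 to 564 CPM to 162 to 364 (log2 fold change -1.05, SE 0.24, adjusted p = 0.00918). Mki67, the marker of cycling cells, had 470, 435, 346 and 372 CPM in organoids and 84.7, 25.3, 198, 36.7, 20 and 341 in spheroid replicates 1 to 6. All spheroids were below all organoids, but replicate 6 only narrowly, and the gene was not called (log2 fold change -1.77, SE 0.75, adjusted p = 0.111; 0.0192 without replicate 6).

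Crypt stem cell and Wnt target genes were lower on balance. Of 18 tested, 1 rose, 9 fell and 8 were not called (median -1.16), where 15.2% of all genes rose and 9.45% fell. Without both S9484 lines 2 rose and 11 fell (median -1.01), against 16.1% and 13.2% of all genes. Leaving out spheroid replicate 4, 1 rose and 8 fell, in a fit that called 3188 of 13670 genes, 1988 of them higher. Lrig1, a brake on EGF receptor signalling in stem cells, had 358, 353, 278 and 305 CPM in organoids and 44.6 to 124 (median 65.9) in spheroids (log2 fold change -2.16, SE 0.26, adjusted p = 0.00036). Axin2, a feedback inhibitor and direct Wnt target, had 218, 191, 150 and 187 CPM in organoids and 27.9 to 121 (median 47.1) in spheroids (-1.78, SE 0.36, adjusted p = 0.00551). Both were lower in every spheroid, with spheroid replicate 3 the highest. Slc12a2, a chloride cotransporter of crypt cells, fell from 1008 to 1276 CPM to 362 to 621 (-1.11, SE 0.17, adjusted p = 0.00106).

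Some stem cell markers varied widely among the spheroid lines. Olfm4, a secreted glycoprotein of adult stem cells (chr14:79984081-80023139), had 1576, 1213, 923 and 963 CPM in organoids. Spheroid replicates 1 and 3, of prefix S9484, had 96.5 and 199 CPM, and replicates 2, 4, 5 and 6 had 0.137, 0.918, 0.0516 and 5.69. No spheroid reached the organoid range, yet over all 6 lines the gene was not called (log2 fold change -4.54, SE 1.68, adjusted p = 0.0752; 0.0326 without replicate 3). Its change was -9.37 (adjusted p = 0.00038) without both S9484 lines. The receptor gene Lgr5 behaved likewise, with 179, 210, 126 and 154 CPM in organoids, 80.2 and 91.8 in spheroid replicates 1 and 3, and 6.66 to 18.7 in the others (-2.20, SE 0.74, adjusted p = 0.0539). It was called without replicate 1 (0.0368) or 3 (0.0161), and without both the change was -3.80 (0.000122). In the DMSO spheroids Lgr5 had 42.6 to 406 CPM. Sox9, a crypt transcription factor, was the gene that rose, from 37.2 to 66.1 CPM to 65.3 to 267 (1.40, SE 0.38, adjusted p = 0.0207), and it was not called without organoid replicate 1 (0.0698) or 2 (0.0664).

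Markers of mature cell types differed widely among the spheroid lines. The 15 Paneth cell genes summed to 1547 to 2007 CPM in organoids, to 282 and 1021 in spheroid replicates 1 and 3, and to 27.7 to 38.5 in the other 4 spheroids. The 22 enterocyte genes summed to 8910 to 14270 CPM in organoids, to 5802 and 13840 in spheroid replicates 1 and 3, and to 113 to 724 in the others. The S9484 lines thus reached the organoid range for enterocyte genes in replicate 3 only, and the other lines were far below it. In bulk RNA, fewer cells of a type and less RNA per cell cannot be told apart.

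**Figure D3:**
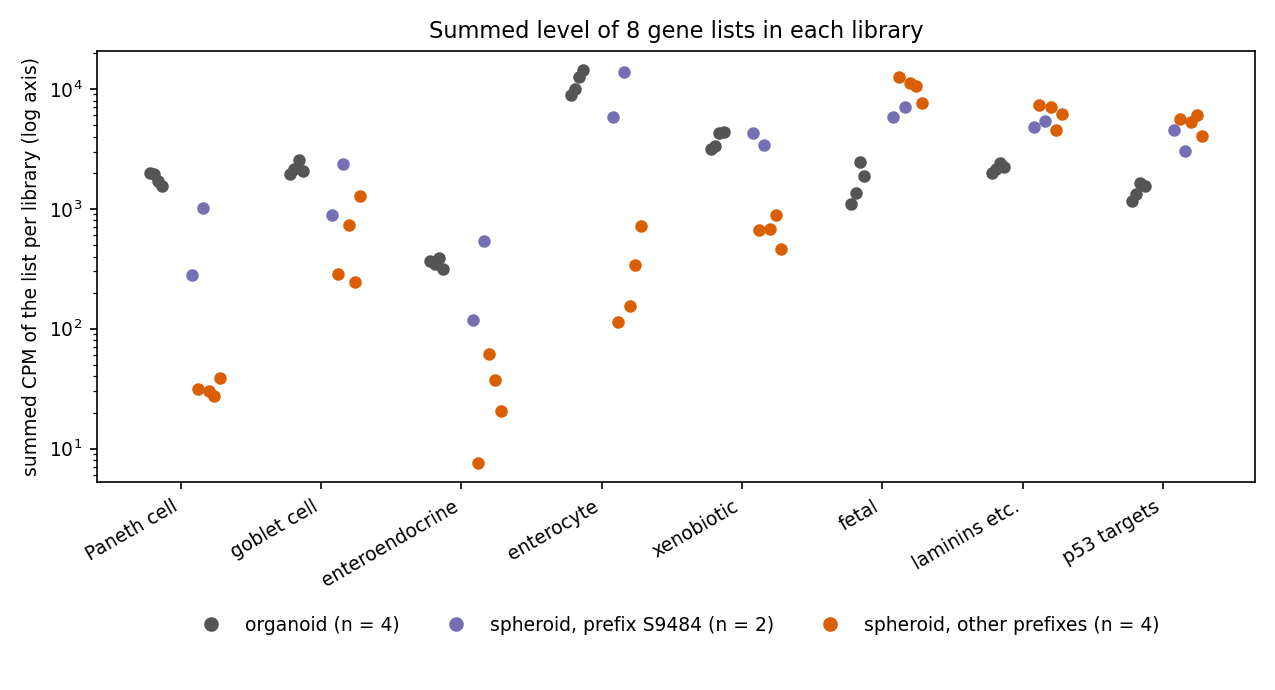
Summed CPM of 8 gene lists in each library on a log axis: grey, the 4 organoids; purple, the 2 spheroids of prefix S9484; orange, the other 4 spheroids. For Paneth genes the orange points lie at 27.7 to 38.5 CPM, the purple ones at 282 and 1021 and the grey ones at 1547 to 2007, whereas for the fetal, laminin and p53 lists all spheroids lie above all organoids.

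The counts of called genes also differed between the fits with and without the S9484 lines. Since those lines were left out for being most like the organoids, more and larger falls without them were favoured by that choice. Of all genes tested, 9.45% fell over all 6 lines and 13.2% without S9484. Over all lines 1 of 15 Paneth genes rose and 3 fell (median -2.57), and without both S9484 lines 1 rose and 13 fell (median -8.26). For enterocyte genes 3 of 22 fell over all lines (median -1.63) and 22 of 22 without both S9484 lines (median -5.80). For goblet genes 1 of 19 fell (median -1.02), against 8 of 19 (-2.09) without those lines. Without spheroid replicate 4 none was called. For enteroendocrine genes 2 of 17 fell (-1.48), against 11 of 14 (-3.63). Of 6 tuft cell genes 2 fell over all lines and 3 of 6 without S9484. The goblet, enteroendocrine and enterocyte counts over all lines thus lay near the share of all genes that fell. Leaving out spheroid replicate 4, 4 enterocyte, 1 enteroendocrine and 3 tuft cell genes fell, in a fit that called 3188 of 13670 genes, 1988 of them higher. No gene of the goblet, enteroendocrine, tuft or enterocyte lists rose in either fit.

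Single genes show the same pattern. Lyz1, the lysozyme of Paneth cells, had 496, 540, 440 and 358 CPM in organoids, 78.7 and 378 in spheroid replicates 1 and 3, and 0, 0.559, 0.31 and 8 in replicates 2, 4, 5 and 6. Replicate 3 was within the organoid range (log2 fold change -2.57, SE 1.67, adjusted p = 0.294; -7.64 and 0.00128 without both S9484 lines). Sis, the brush border sucrase-isomaltase, had 2131 to 3415 CPM in organoids and 1257, 1.23, 4089, 1.40, 31.2 and 161 in spheroid replicates 1 to 6. Replicate 3 was above every organoid (-1.59, SE 1.65, adjusted p = 0.525; -5.79 and 0.0151 without both S9484 lines). The lipid carrier gene Apoa1 was at 618 and 1270.5 CPM in spheroid replicates 1 and 3, at the edge of or inside the organoid range of 619 to 1349.9, and at 1.36 to 31.2 in the other spheroids (-1.63, SE 1.53, adjusted p = 0.475; -6.21 and 0.0019 without both S9484 lines). For the hormone gene Gcg the direction depended on these lines: organoids had 3.48 to 4.52 CPM and spheroid replicates 1 and 3 had 11.7 and 49.0, while the others had 0 to 0.513 (1.31, SE 1.76, adjusted p = 0.63; -4.88 and 0.0107 without both S9484 lines).

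Some enterocyte genes were low in all 6 spheroids, S9484 lines included. The fructose transporter gene Slc2a5 had 23.5, 26, 39.2 and 39.7 CPM in organoids and 0 to 1.58 (median 0.163) in spheroids (log2 fold change -5.96, SE 0.98, adjusted p = 0.002). Fabp1, which carries fatty acids in the cytoplasm (chr6:71199827-71205023), had 384, 403, 546 and 552 CPM in organoids and 71.4, 0, 25.8, 2.87, 0.671 and 1.28 in spheroid replicates 1 to 6 (-4.80, SE 1.39, adjusted p = 0.0311). The groups did not overlap, but leaving out any of the 4 organoids gave an adjusted p of 0.0646 to 0.0678. In the DMSO spheroids Fabp1 had a mean of 341 CPM.

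Genes of drug and xenobiotic metabolism, which adult enterocytes acquire after weaning, fell in 9 of 21 cases and rose in none (median -1.53). Of all genes 9.45% fell and 15.2% rose. Without both S9484 lines 19 of 21 fell (median -3.19), against 13.2% of all genes. Adh1, an alcohol and retinol dehydrogenase, had 139, 194, 380 and 351 CPM in organoids and 0 to 15 (median 0.308) in spheroids (log2 fold change -6.23, SE 1.39, adjusted p = 0.0101). Cyp2b10, a cytochrome P450, had 29.2 to 49.7 CPM in organoids and 0 to 3.02 in spheroids (-5.07, SE 0.75, adjusted p = 0.0011). Cyp3a11, a drug-metabolising cytochrome P450, had 46.9 to 75.2 CPM in organoids and 2.73, 0, 14.0, 0, 0.155 and 0.718 in the spheroids (-4.40, SE 1.28, adjusted p = 0.0321). The call was lost after leaving out any 1 organoid (0.0689 to 0.0747) or spheroid replicate 1 (0.0581), and reads of near-identical P450 genes may be split among them. The upstream 250 bases of Fabp1 (plus strand, chr6:71199629-71199878) and Cyp3a11 (minus strand, chr5:145879855-145880104) are shown because they hold letters of factors that direct enterocyte genes. In Fabp1 the capitals mark the CDX2 letters TTTATGG, read on the opposite strand, 227 and 89 bases before the start site, and in Cyp3a11 the HNF4A letters CAAAGTCCA, 109 bases before it.
Fabp1: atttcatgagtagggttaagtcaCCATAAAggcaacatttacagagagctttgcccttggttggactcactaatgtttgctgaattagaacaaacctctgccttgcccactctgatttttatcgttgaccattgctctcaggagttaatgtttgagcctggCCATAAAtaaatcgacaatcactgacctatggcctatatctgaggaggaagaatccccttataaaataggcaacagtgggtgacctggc
Cyp3a11: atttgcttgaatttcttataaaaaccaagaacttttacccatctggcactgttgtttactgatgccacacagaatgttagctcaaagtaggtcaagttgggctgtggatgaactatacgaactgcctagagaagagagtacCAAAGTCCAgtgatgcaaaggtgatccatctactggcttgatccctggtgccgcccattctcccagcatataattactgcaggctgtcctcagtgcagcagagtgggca
In the RefSeq windows (GRCm38.p6, both strands) the CDX2 letters were in 4.9% of those of genes beyond 2-fold lower, 2.02% of those of genes beyond 2-fold higher and 1.67% of all tested. The HNF4A letters were in 2.1%, 0% and 0.486%. Among all windows, those of untested genes included, the shares were 2.75% for CDX2 and 0.475% for HNF4A. The shares among called genes stand on few windows: 7 lower and 12 higher for CDX2, 3 lower and 0 higher for HNF4A.

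Of 11 markers of the change from suckling to adult gut, 3 rose and 2 fell over all lines (median -1.33), where 15.2% of all genes rose and 9.45% fell. Without both S9484 lines 2 rose and 5 fell, against 16.1% and 13.2% of all genes. Those that fell there were Prdm1 (-1.91, adjusted p = 0.00867), Cps1 (-9.44, 0.000424), Otc (-5.23, 0.0013), Amn (-5.04, 0.00124) and Arg2 (-7.56, 0.00024). Fcgrt (-1.89, 0.0661) and Lrp2 (-1.84, 0.132) were not called in that fit. The genes given next are thus examples and not a summary of the list. Arg2, the arginase that appears as the gut matures, had 34.2 to 64.3 CPM in organoids and 0 to 2.66 in spheroids (log2 fold change -5.53, SE 1.01, adjusted p = 0.0035). Ass1, an enzyme of arginine synthesis in the suckling gut, had 2.66 to 3.63 CPM in organoids and 5.64 to 35.7 (median 20.4) in spheroids (2.69, SE 0.54, adjusted p = 0.00484). Cubn, an endocytic receptor of the suckling and distal gut, had 0.0563 to 0.186 CPM in organoids and 37.8, 2.61, 124, 2.11, 2.79 and 5.59 in spheroid replicates 1 to 6. All spheroids were higher and the S9484 lines highest (7.85, SE 1.83, adjusted p = 0.0123; 4.72 without both S9484 lines, adjusted p = 0.000491).

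Few transcription factors of the intestine were called over all 6 lines. Of 23 tested, 2 rose, 1 fell and 20 were not called (median -0.49), where 15.2% of all genes rose and 9.45% fell. Without both S9484 lines 3 rose and 10 fell (median -0.53), against 16.1% and 13.2% of all genes. Cdx2, which specifies intestine, had 100 to 116 CPM in organoids and 60.4 to 215 in spheroids, and the direction of its difference depended on the S9484 lines (0.30, SE 0.33, adjusted p = 0.548 with them; -0.19, adjusted p = 0.549 without). Hnf4a, a driver of enterocyte genes, had 1003 to 1205 CPM in organoids, 1366 and 1209 in spheroid replicates 1 and 3 and 316 to 528 in the others (-0.65, SE 0.38, adjusted p = 0.237; -1.35 and 0.000507 without both S9484 lines). Gata4, a proximal-gut factor, fell from 174 to 206 CPM to 52.5 to 127 (log2 fold change -1.01, SE 0.19, adjusted p = 0.00395).

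Position-related factors also differed by line. Pdx1, a factor of duodenum and pancreas, was at 0.49 and 0.117 CPM in spheroid replicates 1 and 3 and at 17.6 to 31.8 in the others, with organoids at 2.25 to 10.8 (1.11, SE 1.11, adjusted p = 0.506; 1.70 and 0.0299 without both S9484 lines). Onecut2, another proximal factor, was lowest in the same lines, at 26 and 5.22 CPM against 66.9 to 199 in the other spheroids and 111 to 161 in organoids (-0.83, SE 0.70, adjusted p = 0.422). Hoxa13, a homeobox factor of hindgut, had 0 CPM in 3 organoids and 0.226 in the other one, 0 in spheroid replicates 1 and 3, and 22, 26.9, 7.85 and 2.51 in replicates 2, 4, 5 and 6. It was called over all lines (7.24, SE 2.14, adjusted p = 0.033) but not after leaving out any 1 organoid (0.0909 to 0.102). Without spheroid replicate 2, 4, 5 or 6 it did not pass the filter on low counts. Of 7 Hox genes tested it was the only one called over all lines, where 24.6% of all genes were called. Without both S9484 lines 2 rose, against 16.1% of all genes.

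Of 17 microbial and interferon response genes, 2 rose and 2 fell (median 0.88), where 15.2% and 9.45% of all genes did. In the fit without both S9484 lines 4 and 5 of 16 did, against 16.1% and 13.2%. Pigr, the receptor that carries IgA across the epithelium (chr1:130826684-130852249), had 960, 926, 1067 and 1015 CPM in organoids and 0.775 to 50.8 (median 5.29) in spheroids. It was the largest fall by the rule for named genes (log2 fold change -6.13, SE 1.07, adjusted p = 0.00305). The DMSO spheroids had a mean of 124 CPM of Pigr, against 14.2 under 4-OHT. Tlr4, the lipopolysaccharide receptor, had 1.25, 1.43, 10.8 and 3.16 CPM in organoids and 11.4 to 83.9 (median 53.7) in spheroids (3.48, SE 0.80, adjusted p = 0.0107). Tlr5, the flagellin receptor, had 0 to 0.124 CPM in organoids and 0.645 to 5.19 (median 1.72) in spheroids (5.58, SE 0.98, adjusted p = 0.00242). Among 10 antigen presentation genes 1 was called over all lines, the peptide transporter Tap1, which rose from 7.64 to 15 CPM to 35.8 to 107 (2.48, SE 0.35, adjusted p = 0.000712). Leaving out both S9484 lines, 1 of 8 rose and 1 fell.

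Of 17 genes of the translation initiation complex, 2 rose, 3 fell and 12 were not called (median 0.0156), against the same 15.2% and 9.45% of all genes. With both S9484 lines left out 2 rose and 1 fell, against 16.1% and 13.2% of all genes. Without spheroid replicate 4, 2 rose and 2 fell, in a fit that called 3188 of 13670 genes, 1988 of them higher. Besides Eif4g2, its paralog Eif4g1 fell from 797 to 932 CPM to 510 to 799, with slight overlap (log2 fold change -0.50, SE 0.16, adjusted p = 0.0379), but this call was lost in 8 of 10 fits that left out 1 library (adjusted p up to 0.114), without both S9484 lines (0.0644) and with lines of 1 prefix summed (-0.37, 0.171). The third paralog, Eif4g3, overlapped fully (131 to 143 against 67.6 to 227 CPM) and was not called. Of 24 histone modifiers none rose and 2 fell (median -0.27), and without both S9484 lines none rose and 3 fell. Ezh2, the methyltransferase of Polycomb, fell from 82.3 to 106 CPM to 43.9 to 71.3 (-0.65, SE 0.16, adjusted p = 0.0147; 0.0573 and 0.0516 without organoid replicates 1 and 2), and Kat5, an acetyltransferase, from 38.1 to 41.0 CPM to 21.3 to 34.8 (-0.62, SE 0.15, adjusted p = 0.0148; -0.49 and 0.0761 with lines of 1 prefix summed). The acetyltransferase genes Ep300 (293 to 318 against 118 to 355 CPM) and Crebbp (124 to 134 against 29.3 to 127 CPM) were not called (adjusted p = 0.224 and 0.0848). Without spheroid replicate 6, the highest for both, they were lower at adjusted p = 0.0339 and 0.0124.

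By the rule for named genes the 12 largest rises were of Gja1, Wfdc2, Mal, Cdh13, Ereg, Wnt7b, Kirrel, Cav1, Ano3, Col18a1, Fam198b and Enah, with log2 fold changes from 7.97 to 5.41. Several encode membrane and adhesion proteins. Mal, a lipid-raft protein of apical transport, had 1.31, 1.30, 8.96 and 3.79 CPM in organoids and 112 to 935 (median 286) in spheroids (6.56, SE 0.94, adjusted p = 0.00108). Cav1, the main protein of caveolae, had 0.188, 0.931, 9.8 and 4.52 CPM in organoids and 52.9 to 742 (median 177) in spheroids (6.17, SE 1.2, adjusted p = 0.00512). Wnt7b, a Wnt ligand, had 0.188, 0.31, 5.01 and 1.92 CPM in organoids and 71.1 to 316 (median 131) in spheroids (6.27, SE 0.92, adjusted p = 0.00122). In all 3, organoid replicates 3 and 4 were above replicates 1 and 2 and below every spheroid. Col18a1, the basement membrane collagen that yields endostatin, rose from 0.434 to 4.73 CPM to 63.7 to 176 (5.62, SE 0.70, adjusted p = 0.000485). Under DMSO, flox/flox spheroids had means of 78.3, 27.5, 42.2 and 44.1 CPM for Mal, Cav1, Wnt7b and Col18a1, against 367, 280, 145 and 115 under 4-OHT. For Gja1 and Ereg the means were 72.5 and 33.5 CPM under DMSO, against 194 and 86.4.

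The largest falls by the same rule included those of Pigr, Fabp1, Reg1, Papss2, Vdr, Bche, Smoc2, Fblim1, Myb, Clca3b and Slfn9, from -6.13 to -3.16. Papss2, which makes the sulphate donor for mucins and matrix, had 265, 308, 678 and 685 CPM in organoids and 14.5 to 44.2 (median 21.4) in spheroids. It was low in the S9484 lines too (log2 fold change -4.25, SE 0.40, adjusted p = 0.000139). Vdr, the vitamin D receptor, had 134 to 184 CPM in organoids and 8.67, 0.412, 43.5, 1.12, 0.103 and 3.28 in spheroid replicates 1 to 6 (-4.07, SE 1.21, adjusted p = 0.0346). Smoc2, a matrix protein of stem cells, had 279 to 374 CPM in organoids and 61.7, 1.17, 104, 3.75, 4.39 and 10.1 in the spheroids (-3.41, SE 1.07, adjusted p = 0.0422). Myb, a factor of crypt progenitors, had 105 to 174 CPM in organoids and 1.92 to 42.2 in spheroids (-3.36, SE 0.67, adjusted p = 0.00541). Under DMSO, flox/flox spheroids had means of 116, 22.9, 137 and 15.1 CPM for Papss2, Vdr, Smoc2 and Myb, against 25.4, 9.51, 30.9 and 13.9 under 4-OHT. Of the largest falls, Fabp1, Vdr, Smoc2 and Clca3b were not called after leaving out any 1 of the 4 organoids (adjusted p from 0.0628 to 0.0958). Vdr, Smoc2 and Clca3b were also not called without spheroid replicate 1 (0.0637, 0.0508 and 0.0574). Leaving out spheroid replicate 6 also ended the calls of Vdr (0.0505) and Smoc2 (0.0619), and leaving out replicate 4 or 5 that of Smoc2 (0.052 and 0.0558), as did summing the lines of 1 prefix (0.0534).

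Whether the fetal-adult difference depended on the number of floxed Eif4g2 copies was tested against flox/+ cultures, in a fit over 19 libraries. There the contrast of 5 flox/+ spheroid and 4 flox/+ organoid libraries called 5887 of 15043 genes (39.1%). Its spread came from all 4 groups, whereas the 3396 genes called in flox/flox cultures came from the fit of the 10 libraries alone. The counts are thus not like for like. Of the 3396 genes called in flox/flox cultures, 3337 had the same sign in flox/+ and 2832 were called there too, which are also 2832 of the 5887. The difference between the fetal-adult fold changes (an interaction term over 19 libraries) passed an adjusted p under 0.05 for 8 of 15043 genes (0.0532%), 3 positive (0.0199%) and 5 negative (0.0332%), with 1294 at an unadjusted p under 0.05. The flox/+ spheroids carried the prefixes S9488 (replicate 1), S9612 (replicates 2, 3 and 4) and S9020 (replicate 5). Prefixes S9488 and S9020 thus occurred in both genotypes, which the fit did not use, while no flox/+ spheroid carried S9484 and no flox/flox spheroid carried S9612. For these lines genotype and line cannot be told apart. DESeq2's Wald test called 136, all 8 among them. Leaving out 1 library gave from 0 to 28. None was called without organoid replicate 1, 2 or 3 or flox/+ organoid replicate 2, 3 or 4, and 1 without organoid replicate 4. From 2 to 4 were called without flox/+ organoid replicate 1 or flox/+ spheroid replicate 2, 3 or 4, and from 16 to 28 without spheroid replicate 1, 3 or 6 or flox/+ spheroid replicate 5.

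**Figure D4:**
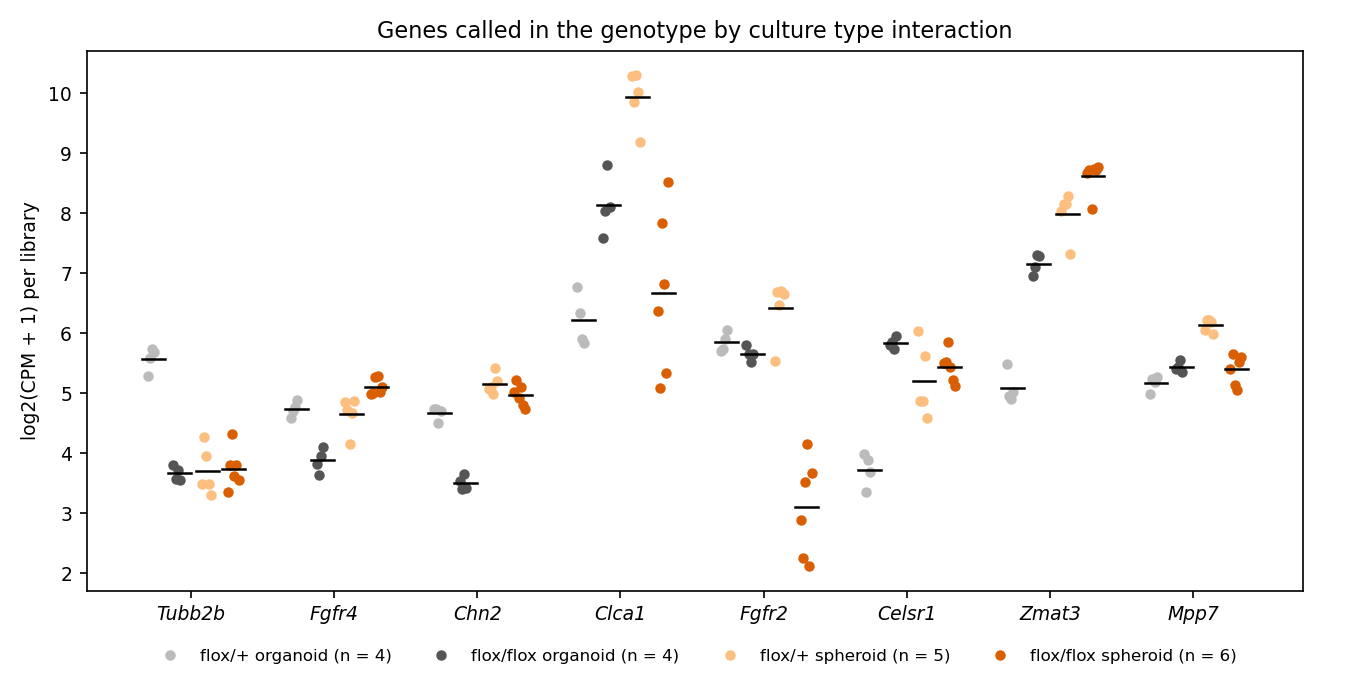
Levels of the 8 genes called in the interaction, as log2(CPM + 1), with 1 point per library and a bar at the mean of each of the 4 groups. Fgfr2 was at 3.36 to 16.8 CPM in flox/flox spheroids, below the other 3 groups, and Tubb2b at 38.0 to 52.1 in flox/+ organoids, above the other 3.

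Fgfr2, a receptor for fibroblast growth factors, was lowest in flox/flox spheroids. It had 44.7 to 55.1 CPM in flox/flox organoids, 3.36 to 16.8 in flox/flox spheroids, 51.3 to 65.6 in flox/+ organoids and 45.6 to 103 in flox/+ spheroids. Only the flox/flox spheroids were low, and under DMSO they had 39.3 to 110 CPM (interaction -3.10 on the log2 scale, SE 0.50, adjusted p = 0.0301). Clca1, a secreted goblet cell protein, had means of 294 and 143 CPM in flox/flox organoids and spheroids and of 75.9 and 1010 in the flox/+ groups. Its order was thus turned, although the flox/flox difference was not called by itself (interaction -4.76, SE 0.80, adjusted p = 0.0301). Zmat3, an RNA-binding p53 target, was higher in spheroids in both genotypes but less so in flox/flox, with means of 143 and 395 CPM against 33.5 and 259 in flox/+ (interaction -1.49, SE 0.26, adjusted p = 0.0301). Celsr1, a planar polarity cadherin, had means of 56.4 and 43.1 CPM in flox/flox against 12.4 and 38.5 in flox/+ (-2.02, SE 0.34, adjusted p = 0.0301), and the scaffold gene Mpp7, which the rule did not name and which is given because it completes the 8, had 42.6 and 41.7 against 35.1 and 69.4 (-1.02, SE 0.18, adjusted p = 0.0301).

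The positive interactions were those of Tubb2b, Fgfr4 and Chn2, and in each the flox/flox organoids were below the flox/+ organoids. Tubb2b, a β-tubulin whose counts may be shared with its close paralogs, had means of 11.7 and 12.7 CPM in flox/flox organoids and spheroids and of 46.9 and 12.4 in flox/+ (2.03, SE 0.30, adjusted p = 0.0268). Fgfr4, another fibroblast growth factor receptor, had 11.5 to 16.3 CPM in flox/flox organoids and 30.8 to 38.2 in flox/flox spheroids, with means of 25.7 and 24.5 in flox/+ (1.35, SE 0.21, adjusted p = 0.0268). Chn2, a GTPase-activating protein, had 9.62 to 11.7 CPM in flox/flox organoids and 25.6 to 36.4 in flox/flox spheroids, with means of 24.5 and 34.8 in flox/+ (1.05, SE 0.17, adjusted p = 0.0301). Of the 8 genes, Zmat3 belonged to the p53 targets and Clca1 to the goblet genes, and none to the fetal, basement membrane or YAP lists.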

How the data were processed

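Polyadenylated RNA was sequenced from directional libraries made with dUTP, per the labels' protocols. The values are raw counts of reads per gene, deposited as 1 table of 34 libraries; alignment used HISAT2 2.0.5 with GRCm38 (mm10), per the submitters' processing notes. The counter, its annotation and its strand setting are not given in the sources used here, so overlapping genes and close paralogs are uncertain.

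Columns were assigned to samples by the column names in their labels. Genes were kept by filterByExpr, scaled by TMM and fitted with edgeR 4.0.16 (robust quasi-likelihood F-test; limma 3.58.1, R 4.3.3) on the 10 libraries of the comparison alone. Benjamini-Hochberg adjustment ran over all tested genes, with calls at an adjusted p under 0.05, and a second call used glmTreat against a fold of 2. The interaction fit used 19 libraries. Printed CPM were scaled by TMM over all 34 libraries. The scripts were tested on simulated counts. Named genes were Eif4g2, list members, the 12 largest rises and falls by fold change (called genes only, group ranges separate, average log2 CPM 3 or more, predicted genes left out), and the 4 largest interactions in each direction. Members and lists were chosen with earlier results of these data known. Alternatives were other scalings (DESeq2 1.42.0 size factors, library totals), no filter, all 34 libraries in the fit, DESeq2's Wald test, a replicate block, spheroid lines summed by name prefix and leaving out each library; fits without both S9484 lines, and list counts without spheroid replicate 4, were added after seeing the data. Promoter windows came from RefSeq (GRCm38.p6), and 10007 of 13796 tested genes matched a window by symbol. Some genes that the rule names are not reported here.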

Additional observations from a re-analysis of the deposited data

Results flagged for a closer look

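In all, 248 combinations of a group with a gene, the mitochondrial share or the count total were examined. In 25, the gap of 1 library to its nearest neighbour, divided by the group's range, exceeded Dixon's 95% critical value for the group's size. For normally distributed values chance gives about 1 in 20, but these CPM were not transformed and some were near 0. Of the 25, 15 were in spheroid replicate 3, of prefix S9484. It was the highest spheroid for the mature-cell genes Lyz1 (378 CPM), Muc2 (167), Chga (27.4), Gcg (49.0), Dclk1 (0.586), Sis (4089), Slc2a2 (6.51), Cyp3a11 (14.0) and Mptx2 (0.176). The same held for Cubn (124 CPM), Axin2 (121), Vdr (43.5), Fblim1 (20.9) and Myb (42.2), and it was the lowest for the p53 target Zmat3 (266).

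Spheroid replicate 6 was the highest for Eif4g2 (222 CPM) and Lama5 (1144), spheroid replicate 1 for Fabp1 (71.4) and spheroid replicate 2 for Wnt7b (316). Among organoids, replicate 3 was the highest for Gja1 (2.37 CPM) and for the TWEAK receptor gene Tnfrsf12a (80.0) and the lowest for Hnf4a (1003). Organoid replicate 4 was the highest for Lin28b (0.452) and Hoxa13 (0.226) and the lowest for Yap1 (219.9).

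The fetal-adult log2 fold change differed between flox/flox and flox/+ cultures, by the interaction term of edgeR's quasi-likelihood fit, for 8 genes. Flox/flox minus flox/+ was 2.03 for Tubb2b, 1.35 for Fgfr4 and 1.05 for Chn2. It was -4.76 for Clca1, -3.10 for Fgfr2, -2.02 for Celsr1, -1.49 for Zmat3 and -1.02 for Mpp7. None of the 8 was called without organoid replicate 1, 2 or 3.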

How the results depend on the processing

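Leaving out 1 library gave 2016 to 4967 called genes and 473 to 956 beyond 2-fold, with the lowest numbers without organoid replicate 2. The most genes were called without spheroid replicate 6, and the most beyond 2-fold without spheroid replicate 3. Without both S9484 lines 1380 genes were beyond 2-fold, 746 of them higher and 634 lower, against 596 and 151 over all lines. The replicate numbers do not pair the samples: residual correlations of same-numbered libraries were 0.041, -0.094, -0.083 and -0.037. A replicate block over replicates 1 to 4 gave 3582 called genes and 270 beyond 2-fold. Summing the spheroid lines of each prefix to 1 sample gave 2932 called genes and 693 beyond 2-fold. The interaction count of 8 became 4 with library totals only, 5 without a filter, 13 with all 34 libraries in the fit, 33 with the replicate block, 136 by DESeq2's Wald test, and 0 to 28 on leaving out 1 library; the causes were not tested. Changes of sign were found for Gcg (-0.86 with the replicate block, -0.76 to 1.58 on leaving out 1 library, the lowest without spheroid replicate 3, -4.88 without both S9484 lines), Pdx1 (-0.49 with the block), Cdx2 (-0.19 without both S9484 lines) and Eif4g3 (0.068 with prefix-summed lines). None of these 4 was called over all lines. The mitochondrial difference of 1.75 percentage points ranged from 1.56 to 1.98 on leaving out 1 library. Library totals in place of TMM moved the median log2 fold change of all genes to -0.0754. A fit with a sex covariate was not run, since all 10 libraries carried Y-linked transcripts. Depth limits the organoid levels of Lin28b and Hoxa13, which rest on 10 and 4 reads over the 4 organoid libraries.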
